A study of Mus musculus with 22 samples.

Results

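The genes described here are 9 members of the epidermal growth factor (EGF) family in mouse lung. They are the ligand genes Areg, Ereg, Hbegf, Tgfa, Btc and Nrg1 and the receptor genes Egfr, Erbb2 and Erbb3. They were chosen by gene symbol, with earlier group differences of these libraries in view, out of 24405 genes with deposited read counts, and all 9 were found. For that reason the group differences below, with their p-values over all genes, are descriptions of these libraries and not independent support for one another. Polyadenylated RNA came from the caudal right lung lobes of C57BL/6 mice, which the design text calls old and wild type without giving an age. The 4 groups cross 2 treatments of an allergic airway model. The first treatment was sensitisation with ovalbumin (OVA), an egg white allergen, or with saline, and the second was goat farm particulate matter (PM) at 3 µg or no PM. There were 6 libraries from saline mice without PM, 5 from saline mice with PM, 6 from OVA mice without PM and 5 from OVA mice with PM. Part of the submitters' text speaks instead of OVA-sensitised mice challenged with saline or OVA, so the groups are called saline arm and OVA arm. The labels do not say that each library is a separate mouse, so p-values measure only the spread between libraries, part of which may be technical. All PM libraries have sample numbers from a separate series, and that series cannot be told apart from PM.

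EGF ligands are made as membrane proteins and are released by metalloproteases such as ADAM17. The released ligands bind receptor tyrosine kinases of the ERBB family, which pair up and signal through RAS and the ERK kinases. EGFR binds amphiregulin (Areg), epiregulin (Ereg), transforming growth factor alpha (Tgfa), betacellulin (Btc) and heparin-binding EGF (Hbegf), ERBB3 binds neuregulin 1 (Nrg1), and ERBB2 has no known ligand of its own and serves as a partner of the others. In the lung the pathway is known for epithelial repair and mucous cell differentiation, and amphiregulin is also made by regulatory T cells, innate lymphoid cells and mast cells.

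The median library held 12.5 M counts (M, mega), the shallowest 0.302 M and the deepest 28.01 M. Below 2 M were 3 libraries: in the OVA arm with PM, replicates 4 and 5 (0.302 and 1.13 M), and in the OVA arm without it, replicate 4 (1.84 M). In the shallowest library 3 counts correspond to 10.1 CPM (read counts per M counts of the library, scaled by TMM), above the level of Areg, Btc and Nrg1 in every other library. The 10 alveolar type 2 markers and 10 epithelial markers fixed for the tissue check had counts in each of the 4 groups.

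Per kilobase of longest transcript, a scale that allows levels of different genes to be compared, Hbegf was the highest of the 9 and Ereg the lowest. In the saline arm without PM the mean level was 17.8 ± 2.44 CPM per kb for Hbegf (SD, n = 6), 9.01 ± 2.13 for Erbb2, 5.86 ± 0.994 for Erbb3 and 3.93 ± 0.675 for Tgfa. It was 3.60 ± 1.17 CPM per kb for Areg, 2.21 ± 0.273 for Egfr, 1.08 ± 0.183 for Btc, 0.487 ± 0.098 for Nrg1 and 0.0484 ± 0.0348 for Ereg. In that order Tgfa and Areg lay within 1 SD of each other and the other neighbours lay further apart. In the OVA arm with PM, Areg was at 1.08 ± 0.633 CPM per kb (SD, n = 5), beside Btc at 1.07 ± 0.43. Ereg had 42 counts over all 22 libraries, from 0 to 5 in each, and did not pass the filter on low counts in any comparison. The other 8 members were tested in every comparison.

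**Figure D1:**
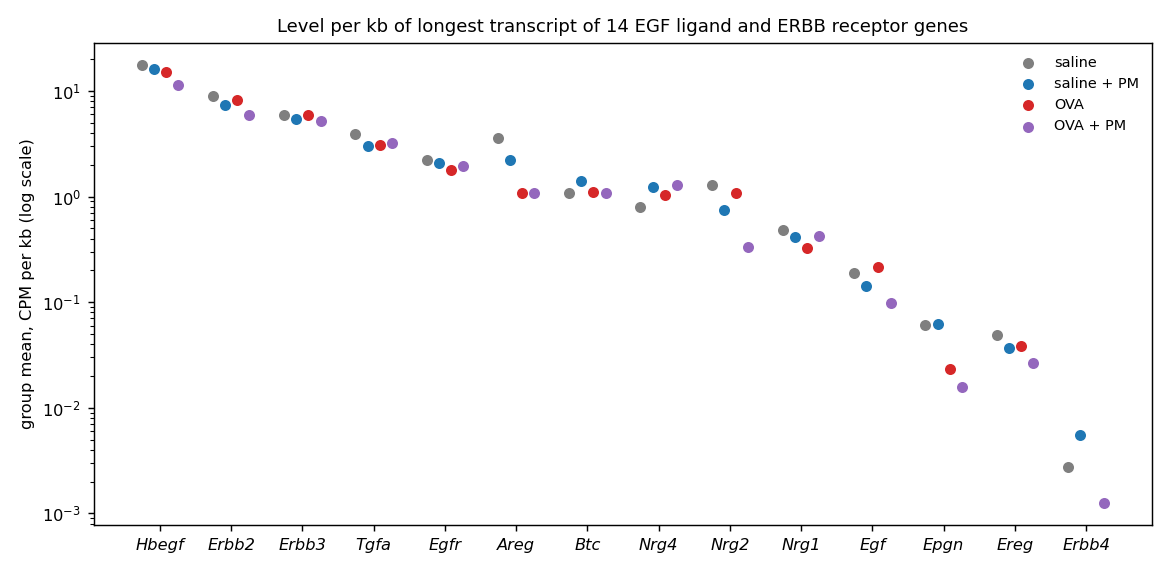
Group mean level in CPM per kb of longest transcript (log axis) of the 9 members and 5 further genes of the family, with 1 point for each of the 4 groups. Nrg3 had 0 counts and group means of 0 are not drawn. Hbegf leads, at 17.8 CPM per kb in the saline arm without PM, and Areg shows the widest gap between the saline and OVA groups among the members above 1 CPM per kb.

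OVA without PM was compared with saline without PM to describe the family in the allergic lung before any PM. Areg, the gene of amphiregulin, fell, and the other 7 tested members did not pass the threshold. Areg stood at a lowest of 3.27, a median of 3.97 and a highest of 7.11 CPM in the 6 saline libraries. It stood at a lowest of 0.579, a median of 1.04 and a highest of 2.35 CPM in the 6 OVA libraries. That lowest value rests on 1 count in replicate 4, which held 1.84 M counts. The 2 groups did not overlap, and the saline library at 7.11 CPM stood above the other 5, which lay between 3.27 and 4.42 CPM. The log2 fold change of Areg was -1.52 ± 0.27 (SE, n = 6 and 6), with an adjusted p of 0.000891 in edgeR's quasi-likelihood test with Benjamini-Hochberg adjustment over all 14632 genes tested. It stayed past the threshold in all 12 fits that left out 1 library, at -1.78 to -1.37. Of all genes tested, 9.27% were called lower and 14.4% higher in this comparison, and in 3.51% the groups did not overlap with OVA below saline. The members' count of 1 lower and 0 higher out of 8 is printed beside these shares and nothing is read from it, since the members were chosen with this contrast known.

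Nrg1, a ligand of ERBB3, stood at a lowest of 1.96, a median of 2.58 and a highest of 3.41 CPM in saline and at 1.05, 1.82 and 2.45 CPM in OVA. Its groups overlapped, and its log2 fold change of -0.59 ± 0.21 had an edgeR adjusted p of 0.0602. Egfr, the receptor of most of these ligands, stood at 18.4, 22.2 and 26.5 CPM in saline (lowest, median and highest) and at 13.3, 19.3 and 21.3 CPM in OVA. These groups overlapped as well, and the log2 fold change of -0.25 ± 0.11 had an edgeR adjusted p of 0.105. For both genes the call changed with the fit: with all 4 groups in 1 fit the edgeR adjusted p was 0.0308 for Nrg1 and 0.0462 for Egfr. Hbegf, a heparin-binding ligand, had a log2 fold change of -0.21 (95% interval -0.46 to 0.038) and Tgfa one of -0.29 (-0.62 to 0.031). Btc was at -0.039 (-0.39 to 0.31), the partner receptor Erbb2 at -0.13 (-0.43 to 0.18) and Erbb3 at 0.022 (-0.21 to 0.25). The median log2 fold change of the 8 members was -0.23, and that of all genes tested was -0.019.

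Markers of several cell types moved in the same comparison, and their part in the fall of Areg was not tested. All 8 regulatory T cell markers rose, with a summed level of 20.9 to 27.0 CPM over the 6 saline libraries and 39.9 to 65.6 CPM over the 6 OVA libraries. Of 7 tested markers of type 2 innate and helper T cells 4 rose (summed level 36.6 to 61.3 and 53.8 to 79.9 CPM), and of 11 mast cell and basophil markers 2 rose and 1 fell (368 to 455 and 283 to 344 CPM). That last sum is mostly Hdc, Kit and Gata2, with means of 159, 107 and 59.4 CPM over the 22 libraries. Cma1 was the highest of the rest, at 5.48 CPM, so the sum does not describe the less abundant markers. Gata2 ran from 63.6 to 134 CPM in saline and 33.0 to 75.3 CPM in OVA. Cpa3 ran from 1.66 to 3.27 and from 2.44 to 10.4 CPM. Of 10 epithelial markers 3 fell (2244 to 2524 and 1789 to 2324 CPM), of 10 alveolar type 1 markers 7 fell (8848 to 9693 and 5692 to 9026 CPM), and of 10 endothelial markers 7 fell (3968 to 4953 and 2233 to 3737 CPM). Of 9 interstitial macrophage and monocyte markers 7 rose (448 to 570 and 1107 to 1373 CPM), as did 7 of 7 B cell markers (211 to 299 and 390 to 684 CPM). Of 8 tested T cell markers 6 rose (111 to 201 and 181 to 244 CPM), of 8 dendritic cell markers 4 rose (108 to 114 and 134 to 167 CPM), and of 5 tested eosinophil markers 4 rose (33.7 to 92.2 and 66.7 to 188 CPM). Of 8 club and goblet cell markers 4 rose and 3 fell. Of the lists with sums given here, 1 eosinophil marker, Epx, was at 0 in all saline libraries and the other markers were at 0 throughout neither group. In RNA from whole tissue, fewer cells of a type and less RNA per cell cannot be told apart.

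**Figure D2:**
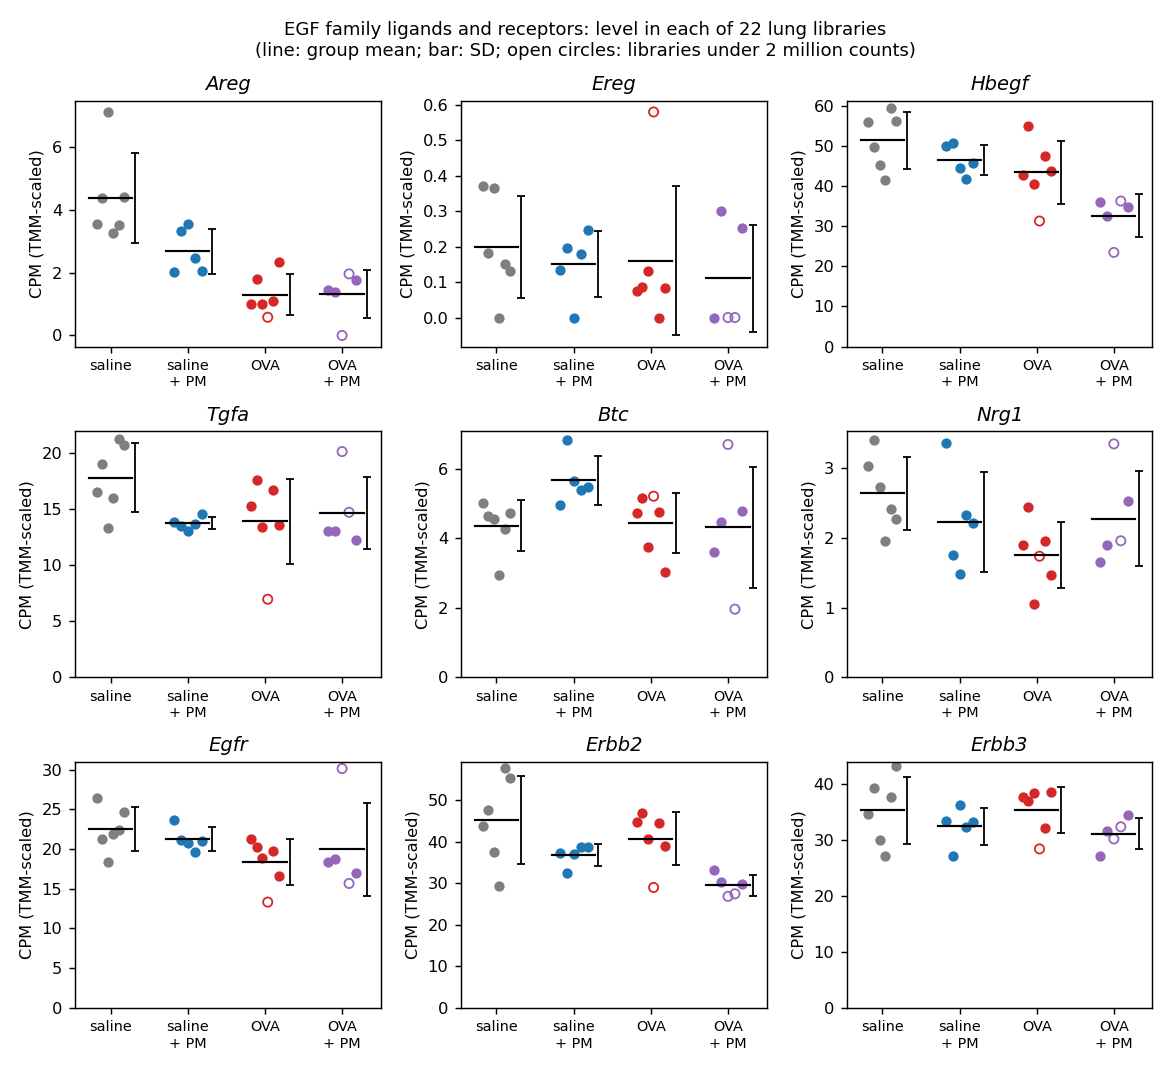
CPM of the 9 members in each of the 22 libraries by group, with the group mean as a line and the SD as a bar, and open circles for the 3 libraries under 2 M counts. Areg runs from 3.27 to 7.11 CPM in the saline arm without PM and from 0.579 to 2.35 CPM in the OVA arm without PM. The value of 0.579 CPM comes from 1 count. Hbegf is lowest in the OVA arm with PM.

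OVA was compared with saline among libraries that all had PM. Hbegf, Areg and Erbb2 fell, and the other 5 tested members did not pass the threshold. Hbegf stood at 49.9, 50.6, 44.5, 41.8 and 45.6 CPM in the saline libraries with PM and at 36.0, 32.6, 23.5, 36.2 and 34.8 CPM in the OVA libraries with PM. Each OVA library lay below each saline library, and the lowest value, 23.5 CPM, came from the library of 0.302 M counts, where it rests on 7 counts. The log2 fold change of Hbegf was -0.44 ± 0.09 (SE, n = 5 and 5), with an edgeR adjusted p of 0.00209. It stayed past the threshold in all 10 fits that left out 1 library, at -0.49 to -0.40, and at -0.43 to -0.51 in all 10 other fits tried. Of all 14250 genes tested, 9.57% were called lower and 13.2% higher, and in 5.87% the OVA libraries all lay below the saline libraries. The members' count of 3 lower and 0 higher out of 8 stands beside these shares without a reading, for the reason given above.

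Areg stood at 2.02, 3.32, 3.56, 2.47 and 2.05 CPM in the saline libraries with PM and at 1.43, 1.39, 0, 1.96 and 1.77 CPM in the OVA libraries with PM. The groups did not overlap, and the value of 0 came from the shallowest library, where a count of 0 allows up to 10.1 CPM, for counting error only. The highest OVA value, 1.96 CPM, rests on 2 counts in replicate 5 (1.13 M counts), where 3 counts correspond to 2.94 CPM. It lies just below the lowest saline value of 2.02 CPM, so the lack of overlap rests on few counts. The log2 fold change was -0.73 ± 0.26, with an edgeR adjusted p of 0.0499. That call was lost in 8 of 10 fits that left out 1 library (adjusted p 0.0442 to 0.152 in edgeR), namely each OVA library and saline replicates 2, 3 and 5. DESeq2 gave an adjusted p of 0.172. Erbb2 stood at 37.2, 32.3, 37.1, 38.7 and 38.6 CPM in saline with PM and at 33.2, 30.2, 26.8, 27.4 and 29.7 CPM in OVA with PM. One saline library, at 32.3 CPM, lay below the highest OVA library, and the rest did not overlap. The log2 fold change of Erbb2 was -0.27 ± 0.09, with an edgeR adjusted p of 0.04. It was lost in 7 of 10 fits that left out 1 library (edgeR adjusted p 0.0111 to 0.109), namely saline with PM replicates 1, 3, 5 and 6 and OVA with PM replicates 2, 5 and 6, and in DESeq2 the adjusted p was 0.102.

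Of the members that did not pass, Btc had a log2 fold change of -0.42 (95% interval -0.81 to -0.037, edgeR adjusted p 0.112) and Egfr one of -0.22 (-0.47 to 0.017). Nrg1 was at -0.14 (-0.68 to 0.39), Tgfa at -0.073 (-0.32 to 0.17) and Erbb3 at -0.044 (-0.26 to 0.17). The members' median was -0.25 and that of all genes tested was -0.0061. Markers moved here too, and their part in these results was not tested: 9 of 10 endothelial markers fell, with a summed level of 3329 to 3645 CPM in saline with PM and 1980 to 2580 CPM in OVA with PM. Of 10 alveolar type 1 markers 9 fell (8624 to 9323 and 5682 to 8456 CPM), and of 10 epithelial markers 2 fell (2332 to 2545 and 1899 to 2251 CPM). Of 8 regulatory T cell markers 5 rose (29.8 to 36.7 and 36.9 to 90.1 CPM). Among 7 tested markers of type 2 innate and helper T cells 3 rose (53.2 to 56.7 and 65.1 to 74.4 CPM). Mast cell and basophil markers, 10 of them tested, gave 1 rise and 3 falls (324 to 391 and 250 to 293 CPM). Of 9 fibroblast markers 2 rose and 5 fell (2180 to 2359 and 2194 to 2624 CPM). Of 9 interstitial macrophage and monocyte markers 7 rose (594 to 710 and 1082 to 1831 CPM), as did 6 of 7 B cell markers (278 to 374 and 506 to 883 CPM), 5 of 5 tested eosinophil markers (58.7 to 79.9 and 70.4 to 249 CPM) and 3 of 8 T cell markers (113 to 187 and 194 to 314 CPM). None of them was at 0 throughout a group.

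**Figure D3:**
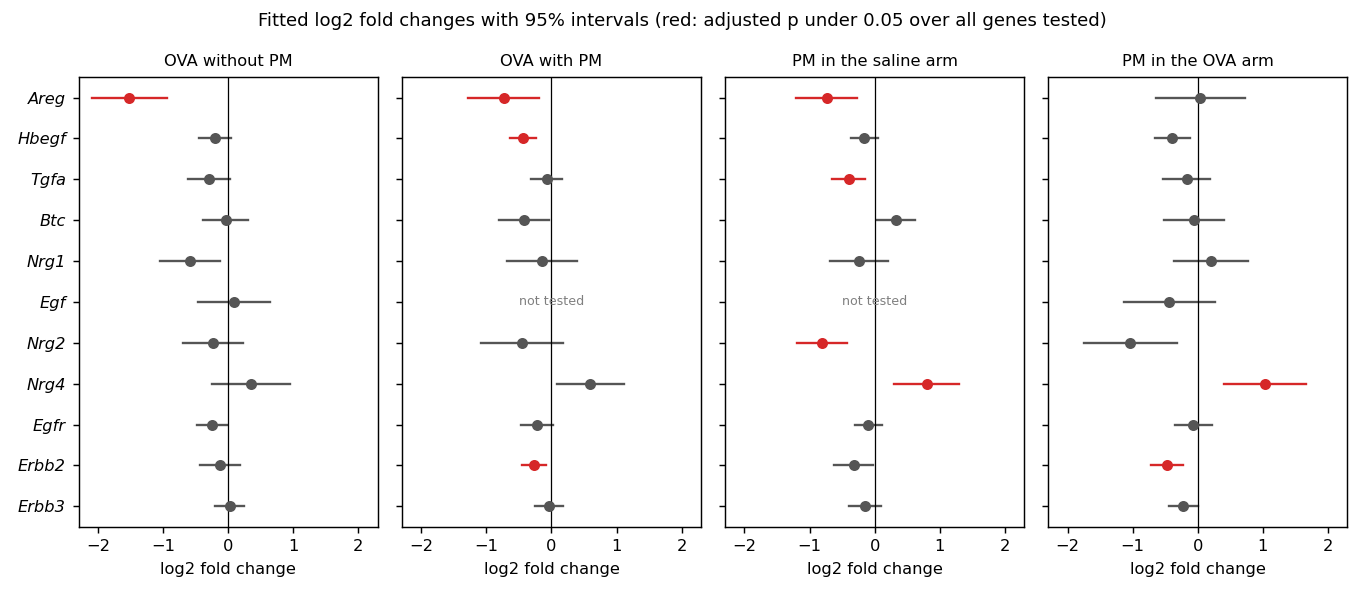
Log2 fold change (x axis) with its 95% interval for the 8 tested members and Egf, Nrg2 and Nrg4 in each pairwise comparison, in red where the edgeR adjusted p over all genes tested was under 0.05. Areg lies at -1.52 for OVA without PM and at 0.040 for PM in the OVA arm, and Hbegf lies at -0.44 for OVA with PM.

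PM was compared with no PM in the saline arm. The ligand genes Areg and Tgfa fell and 0 members rose. Tgfa, whose product is an epithelial growth factor that binds EGFR, stood at a lowest of 13.3, a median of 17.8 and a highest of 21.2 CPM without PM and at 13.8, 13.5, 13.1, 13.6 and 14.5 CPM with PM. The libraries with PM lay in a narrow band at the lower end of those without, with overlap. The log2 fold change of Tgfa was -0.40 ± 0.12 (SE, n = 6 and 5), with an edgeR adjusted p of 0.0439. Areg, with its 6 libraries without PM between 3.27 and 7.11 CPM and its 5 libraries with PM between 2.02 and 3.56 CPM, also overlapped. Its log2 fold change was -0.74 ± 0.22, with an edgeR adjusted p of 0.0432. Of all 14496 genes tested, 7.37% were called lower and 5.47% higher, and in 3.19% the groups did not overlap with PM below no PM. The members' count of 2 lower out of 8 is given beside these shares with no reading.

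Both calls lay close to the threshold. Each was lost in 9 of 11 fits that left out 1 library and kept without the no-PM replicate 3 or 4, with edgeR adjusted p of 0.0269 to 0.105 for Areg and 0.00655 to 0.107 for Tgfa. The libraries whose removal ended the calls were replicates 1, 2, 5 and 6 without PM and replicates 1, 2, 3, 5 and 6 with PM. Both were also lost with no filter on low counts, at edgeR adjusted p of 0.0501 and 0.0526. Of the other members, Btc had a log2 fold change of 0.33 (95% interval 0.038 to 0.63, edgeR adjusted p 0.113) and Erbb2 one of -0.32 (-0.62 to -0.025, edgeR adjusted p 0.127). Nrg1 was at -0.24 (-0.69 to 0.20), Hbegf at -0.16 (-0.37 to 0.052), Erbb3 at -0.15 (-0.40 to 0.092) and Egfr at -0.097 (-0.31 to 0.12). The members' median was -0.20 and that of all genes tested was 0.0053. Beside these results, 6 of 10 endothelial markers fell (summed level 3968 to 4953 CPM without and 3329 to 3645 CPM with PM), as did 3 of 7 smooth muscle markers (280 to 745 and 311 to 417 CPM) and 1 of 9 heart muscle markers (104 to 545 and 123 to 213 CPM). Of 10 epithelial markers 0 passed the threshold (2244 to 2524 and 2332 to 2545 CPM). Of 10 alveolar type 2 markers 4 rose and 1 fell, and of 7 tested regulatory T cell markers 3 rose (20.9 to 27.0 and 29.8 to 36.7 CPM). Among 6 tested markers of type 2 innate and helper T cells 1 rose (36.6 to 61.3 and 53.2 to 56.7 CPM). Mast cell and basophil markers, 9 of them tested, gave 1 rise and 1 fall (368 to 455 and 324 to 391 CPM). Of 9 interstitial macrophage and monocyte markers 5 rose (448 to 570 and 594 to 710 CPM), and of 5 tested eosinophil markers 3 rose (33.7 to 92.2 and 58.7 to 79.9 CPM). The part of these markers in the falls of Areg and Tgfa was not tested.

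PM was compared with no PM in the OVA arm, where Erbb2 fell and 0 members rose. Erbb2 stood at a lowest of 29.0, a median of 42.4 and a highest of 47.0 CPM without PM, and at 33.2, 30.2, 26.8, 27.4 and 29.7 CPM with PM. The one library without PM inside the range of those with PM, at 29.0 CPM from 50 counts, was replicate 4, which held 1.84 M counts. That library also differed in tissue markers. Its mesothelial marker Msln was at 356 CPM, against 45.5 to 76.8 CPM in the other OVA libraries without PM. It was not alone in this. In the saline arm without PM, replicates 3 and 4 had Msln at 318 and 395 CPM. Their Erbb2 stood at 37.6 and 29.4 CPM, against 43.6 to 57.6 CPM in the rest of that group. Why Erbb2 was low in these libraries was not tested. The log2 fold change of Erbb2 was -0.47 ± 0.12 (SE, n = 6 and 5), with an edgeR adjusted p of 0.026. The call was lost in 6 of 11 fits that left out 1 library (edgeR adjusted p 0.00163 to 0.0758), namely replicates 1, 3 and 5 without PM and replicates 1, 2 and 6 with PM. Without replicate 1 or replicate 6 with PM, edgeR called 0 of all genes in this comparison. Hbegf had a lowest of 31.3, a median of 43.2 and a highest of 55.0 CPM without PM and lay between 23.5 and 36.2 CPM with PM. Its groups overlapped, again through replicate 4 without PM, and its log2 fold change of -0.39 ± 0.13 had an edgeR adjusted p of 0.0604. Without the libraries under 2 M counts it was -0.42, with an edgeR adjusted p of 0.0173. Of all 14657 genes tested, 6.87% were called lower and 2.27% higher, that is 1007 and 332 genes, against 1870 and 184 when libraries were scaled by their totals, a scaling that moved the median of all genes to -0.11. The members' count of 1 lower out of 8 is again set beside these shares with no reading.

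Areg did not differ between these groups beyond their spread, with a log2 fold change of 0.040 and a 95% interval of -0.65 to 0.73. Its lower bound lies above the -0.74 estimated for PM in the saline arm, whose own interval of -1.21 to -0.27 overlaps it, and the direct test of the difference is given below. With a length and GC offset fitted on all tested genes the sign turned, to -0.30 (edgeR adjusted p 0.644). Erbb3 was at -0.22 (95% interval -0.44 to -0.0044, edgeR adjusted p 0.168), Tgfa at -0.17 (-0.53 to 0.19) and Egfr at -0.067 (-0.35 to 0.21). Btc was at -0.056 (-0.51 to 0.40) and Nrg1 at 0.20 (-0.37 to 0.77). The members' median was -0.12 and that of all genes tested -0.0020. Of 10 endothelial markers 6 fell (summed level 2233 to 3737 CPM without and 1980 to 2580 CPM with PM), and so did 6 of 9 heart muscle markers (44.6 to 486 and 59.7 to 188 CPM), 3 of 7 smooth muscle markers (305 to 899 and 258 to 451 CPM) and 4 of 9 fibroblast markers (2269 to 4525 and 2194 to 2624 CPM). Of 10 epithelial markers 0 passed (1789 to 2324 and 1899 to 2251 CPM). Of 7 alveolar macrophage markers 3 rose (377 to 764 and 541 to 635 CPM), as did 2 of 8 ciliated cell markers (287 to 374 and 266 to 445 CPM). The part of these markers in the fall of Erbb2 was not tested.

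A fit of all 4 groups tested whether the effect of PM differed between the arms. Of the 8 members 0 passed the threshold in edgeR, 0 had an unadjusted p under 0.05, and DESeq2 called 0. Of all 14942 genes tested, 0.0937% were called in either direction. The difference (PM effect in the OVA arm minus PM effect in the saline arm) was 0.79 for Areg, with a 95% interval of -0.022 to 1.60, 0.46 for Nrg1 (-0.22 to 1.15) and 0.25 for Tgfa (-0.17 to 0.67). It was -0.37 for Btc (-0.86 to 0.13), -0.22 for Hbegf (-0.54 to 0.11), -0.13 for Erbb2 (-0.51 to 0.26), -0.050 for Erbb3 (-0.37 to 0.27) and 0.049 for Egfr (-0.28 to 0.37). The falls of Areg and Tgfa with PM, past the threshold in the saline arm alone, are not shown to differ between the arms.

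Values in the libraries with PM also varied among members that passed in no comparison. Btc, whose product binds EGFR and ERBB4, stood at 4.97, 6.84, 5.64, 5.40 and 5.49 CPM in the saline arm with PM and at 3.62, 4.48, 6.70, 1.96 and 4.797 CPM in the OVA arm with PM. The OVA libraries spanned more than the saline libraries, and their highest and lowest values came from the 2 libraries under 2 M counts. Egfr stood at 23.7, 21.2, 20.8, 19.7 and 21.1 CPM in the saline arm with PM and at 18.3, 18.7, 30.2, 15.7 and 16.98 CPM in the OVA arm with PM, where 4 of 5 libraries lay below all saline libraries and the shallowest lay above them. Erbb3, a receptor with a weak kinase that signals through its partners, stood at 33.3, 27.0, 36.2, 32.3 and 33.1 CPM in the former group and at 27.1, 31.6, 30.2, 32.3 and 34.4 CPM in the latter, with overlap. Nrg1 stood at 3.36, 1.76, 1.48, 2.32 and 2.21 CPM and at 1.66, 1.89, 3.35, 1.96 and 2.52 CPM, and these groups overlapped over nearly their whole range.

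The PM values of the receptor genes moved once length and GC content of the transcripts were jointly offset, and the parts of length and GC in that move were not tested separately. Erbb2 has the highest GC content of the members, 57.3% in its longest transcript, and Btc the lowest, 37.7%. Over 10479 genes, log2 CPM relative to each gene's mean changed per 10 points of GC by 0.12 ± 0.13 in the saline libraries without PM (SD, n = 6) and by -0.13 ± 0.13 in those with PM (n = 5). In the OVA arm it changed by 0.094 ± 0.10 without PM (n = 6) and by -0.12 ± 0.11 with PM (n = 5). Per doubling of transcript length it changed by 0.077 ± 0.16 without PM and -0.073 ± 0.014 with PM in the saline arm, and by 0.082 ± 0.12 and -0.12 ± 0.055 in the OVA arm. When an offset removed the dependence of each library on length and GC, the log2 fold change of Erbb2 with PM was -0.090 in the OVA arm (edgeR adjusted p 0.551) and 0.022 in the saline arm (edgeR adjusted p 0.870), so that the fall was not called in one arm and the sign turned in the other. Egfr, which has the longest transcript of the members (10208 nt) and a GC content of 44.4%, went from -0.097 to -0.012 in the saline arm and from -0.067 to 0.058 in the OVA arm. Tgfa with PM in the saline arm was -0.28 with the offset (edgeR adjusted p 0.0708). Hbegf, at 51.45% GC, kept -0.38 in the OVA arm, and Areg in the saline arm was at -1.05 when the offset was fitted on all tested genes (edgeR adjusted p 0.00839). Erbb2 between OVA and saline with PM kept its call with the offset, at -0.24 (edgeR adjusted p 0.0137). Exons of Erbb2 overlap those of Mien1 on the opposite strand, and the counting strand is not given in the sources used here. Mien1 had values of the opposite sign with PM, at log2 fold changes of 0.29 in the saline arm and 0.40 in the OVA arm, neither past the threshold.

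**Figure D4:**
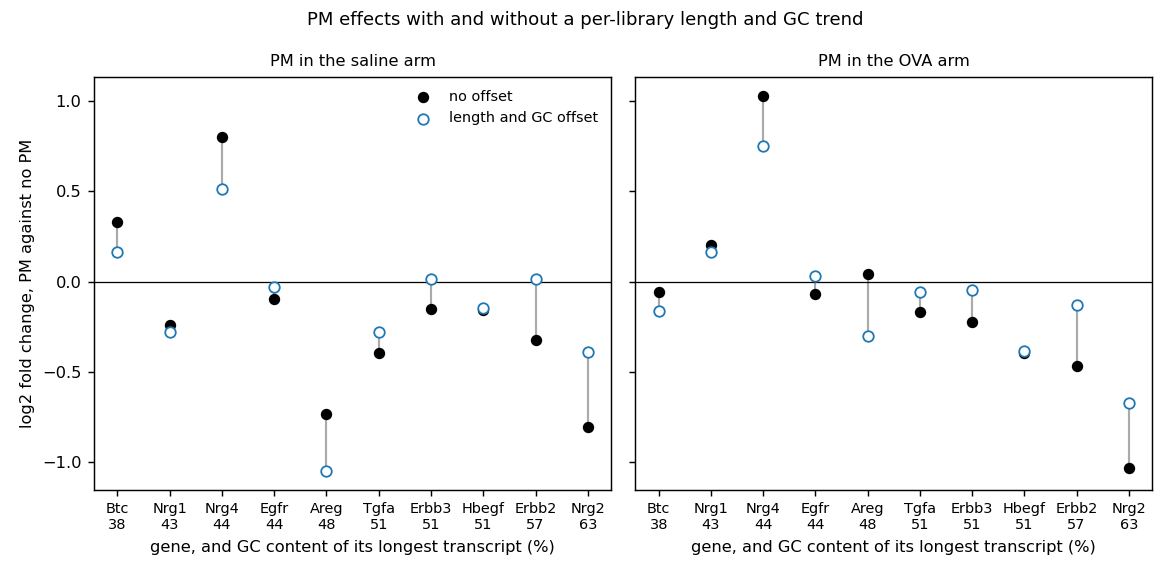
Log2 fold change with PM (y axis) of the 8 tested members, Nrg2 and Nrg4 in each arm, ordered by the GC content of the longest transcript, without an offset (filled) and with a length and GC offset fitted on all tested genes (open). Erbb2 moves from -0.47 to -0.13 in the OVA arm and from -0.32 to 0.014 in the saline arm, and Hbegf hardly moves.

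Areg lies in a cluster of EGF ligand genes on chromosome 5, where Epgn (epigen), Ereg, Areg and Btc span 375.5 kb of GRCm38. Areg spans chr5:91139599-91148432 on the plus strand and Btc chr5:91357261-91402994 on the minus strand. Epgn and Ereg, the neighbours of Areg on one side, had 19 and 42 counts over the 22 libraries and were not tested. Btc, the protein-coding neighbour on the other side, did not pass the threshold in any comparison. Its lowest, median and highest were 2.94, 4.59 and 5.03 CPM in saline without PM and 3.02, 4.74 and 5.21 CPM in OVA without PM. The 250 bases before the start sites of Areg and Btc are shown because these were the 2 genes of the cluster with enough counts to be tested, with log2 fold changes of -1.52 and -0.039 for OVA without PM. They are from RefSeq, build GRCm38.p6, at chr5:91139349-91139598 (plus strand) and chr5:91402995-91403244 (minus strand). Capitals mark the CRE core TGACG, the AP-1 site TGANTCA and the TATA box TATAAA, searched on both strands.
Areg: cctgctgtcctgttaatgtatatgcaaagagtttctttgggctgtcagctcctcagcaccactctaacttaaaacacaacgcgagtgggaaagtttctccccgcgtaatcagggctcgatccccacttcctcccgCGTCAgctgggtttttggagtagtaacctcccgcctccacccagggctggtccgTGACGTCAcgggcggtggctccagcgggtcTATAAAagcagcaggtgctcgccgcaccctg
Btc: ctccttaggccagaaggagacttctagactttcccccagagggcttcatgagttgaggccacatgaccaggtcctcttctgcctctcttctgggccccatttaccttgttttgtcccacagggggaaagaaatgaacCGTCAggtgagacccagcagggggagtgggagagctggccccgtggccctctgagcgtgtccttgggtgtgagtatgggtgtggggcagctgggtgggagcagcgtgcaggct
The Areg window holds the full CRE TGACGTCA, whose match begins at -61 from the start site, as do 1.55% of all 32851 promoter windows of that length. It holds 3 core matches, 2 of them within the full site, and the core is found in 17.8% of all windows. A TATA box begins at -31, a motif found in 12.4% of windows. The Btc window holds 1 core match, at -113, and no full CRE or TATA box. Neither window has the AP-1 letters, which 6.75% of all windows have. These matches describe the letters of the windows and say nothing of which factors bind there.

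**Figure D5:**
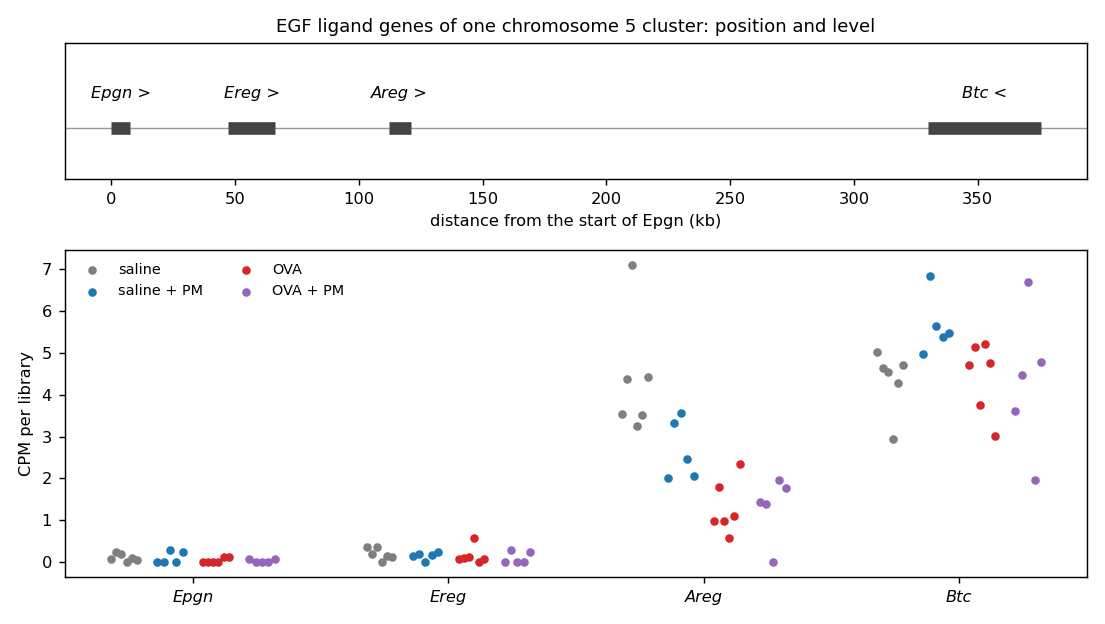
Upper panel: position of Epgn, Ereg, Areg and Btc as distance in kb from the start of Epgn, with arrowheads for the strand. Lower panel: CPM of each gene in the 22 libraries by group, where Ereg reaches at most 0.579 CPM and Epgn at most 0.297 CPM, Areg lies between 0 and 7.11 CPM, and Btc lies between 1.96 and 6.84 CPM.

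The 6 further genes of the family were Egf, Epgn, Nrg2, Nrg3, Nrg4 and Erbb4. Nrg3 had 0 counts, Erbb4 8 and Epgn 19 over all libraries, and none of these was tested. Nrg2, which encodes neuregulin 2, stood at a lowest of 2.96, a median of 3.86 and a highest of 4.77 CPM in saline without PM and at 2.28, 1.66, 2.67, 2.29 and 2.54 CPM in saline with PM. The groups did not overlap, and the log2 fold change was -0.81 ± 0.18, with an edgeR adjusted p of 0.0184, lost without replicate 6 of the libraries without PM or replicate 5 of those with PM (highest edgeR adjusted p 0.0528). Nrg2 has the highest GC content of the tested genes of the family, 63.4%, and with the offset on all tested genes its value was -0.39 (edgeR adjusted p 0.133). In the OVA arm its log2 fold change with PM was -1.04 ± 0.34 (edgeR adjusted p 0.064). Nrg4, the gene of neuregulin 4, rose with PM in both arms. It stood at a lowest of 0.9751, a median of 1.53 and a highest of 2.94 CPM in saline without PM and at 1.88, 2.73, 2.67, 2.64 and 2.87 CPM in saline with PM, with overlap. In the OVA arm Nrg4 lay between 1.34 and 4.63 CPM without PM and at 3.84, 3.58, 0, 0.979 and 4.99 CPM with PM, with overlap. The values of 0 and 0.979 CPM came from the libraries of 0.302 and 1.13 M counts, from 0 and 1 counts. For Nrg4 in the OVA arm the authors' deposited table gives no adjusted p. Its log2 fold change was 0.80 ± 0.23 in the saline arm (edgeR adjusted p 0.0396) and 1.03 ± 0.29 in the OVA arm (edgeR adjusted p 0.0419). With the offset on all tested genes these were 0.51 and 0.75, with edgeR adjusted p of 0.158 and 0.144. The call in the saline arm was kept in 2 of 11 fits that left out 1 library, those without no-PM replicate 3 or 4, and the call in the OVA arm in 4 of 11, those without no-PM replicate 2 or 4 or PM replicate 4 or 5. Exons of Nrg4 overlap those of Fbxo22 on the opposite strand, whose log2 fold changes with PM were 0.058 and 0.076. Egf, the founding ligand, averaged 0.784 CPM, was tested in 2 of the 4 pairwise comparisons and passed in neither.

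Genes that act before and after the receptors were read from 4 lists chosen with earlier results of these libraries known. Of the 10 tested genes of ligand shedding, 3 rose and 0 fell with OVA without PM. They were Adam8, a leukocyte metalloprotease (1.21 ± 0.18), Adam10, a protease that releases betacellulin (0.37 ± 0.081), and Adam17, the main protease that releases amphiregulin and TGF-alpha (0.32 ± 0.088), with edgeR adjusted p of 0.000187, 0.00439 and 0.0173. These are transcript levels and not protease activity. Of 18 genes that restrain the receptors, 5 rose and 1 fell. The one that fell was Errfi1, an inhibitor of the EGFR kinase, at -0.71 ± 0.14 (edgeR adjusted p 0.00183), and among those that rose were the phosphatase gene Ptpn1 (0.55 ± 0.086) and Socs3, an inhibitor of cytokine receptors (0.52 ± 0.11). Of 28 adaptor and kinase genes 2 rose, Stat5a (0.57 ± 0.081) and the adaptor gene Grb2 (0.41 ± 0.10). Of 23 tested genes that EGFR and ERK signalling is known to induce, 4 rose and 3 fell, with Egr2 (1.57 ± 0.22), Myc (1.03 ± 0.15) and Junb (0.53 ± 0.10) among the rises. All 3 encode transcription factors that other signals also induce. These counts stand beside 14.4% of all genes tested called higher and 9.27% called lower. The medians of the 4 lists were 0.28, 0.016, -0.055 and 0.044, beside -0.019 for all genes tested.

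With OVA among libraries with PM, 3 shedding genes rose and 1 fell. Adam8 (0.93 ± 0.18) and Adam17 (0.24 ± 0.074) were among the rises, and the fall was Timp3, an inhibitor of ADAM17 (-0.43 ± 0.13). Of the restraint genes 2 rose and 0 fell, Cbl, a ubiquitin ligase that marks EGFR for degradation (0.91 ± 0.17), and Ptpn1 (0.47 ± 0.095). Of the adaptors 2 rose and 3 fell, with Grb2 (0.47 ± 0.089), Stat5a (0.54 ± 0.11) and Gab1 (-0.35 ± 0.10) as examples, and of the induced genes 4 rose and 5 fell, with Egr2 (1.01 ± 0.19), Ier3 (-0.56 ± 0.10) and the ERK phosphatase gene Dusp6 (-0.42 ± 0.086) as examples. Of all genes tested 13.2% were called higher and 9.57% lower. The medians were 0.20, -0.0079, -0.035 and 0.043, beside -0.0061 for all genes tested.

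With PM in the saline arm, 0 of 10 shedding genes were called. Hgs, which sorts receptors for degradation, fell (-0.54 ± 0.13) as the 1 call of 18 restraint genes. Of 28 adaptors 3 fell, Plcg1 (-0.39 ± 0.11), Akt1 (-0.29 ± 0.088) and Mapk3, one of the ERK kinases (-0.24 ± 0.074). Of 23 induced genes 2 fell and 1 rose: Spry4 and Spry1, both inhibitors of RAS and ERK signalling, fell (-1.21 ± 0.21 and -0.43 ± 0.11) and Egr2 rose (0.85 ± 0.17). With PM in the OVA arm, 2 shedding genes, 2 restraint genes, 2 adaptors and 2 induced genes fell, and 0 rose. These were Bace1, a protease that cleaves neuregulin 1 (-0.62 ± 0.15), Rhbdf2, which carries ADAM17 to the cell surface (-0.39 ± 0.12), Hgs (-0.60 ± 0.11), Socs3 (-0.44 ± 0.10), Stat5b (-0.32 ± 0.085), Gab1 (-0.52 ± 0.15), Spred2 (-0.66 ± 0.17) and Spry4 (-0.75 ± 0.20), in log2 with SE. Of all genes tested 5.47% were called higher and 7.37% lower with PM in the saline arm, and 2.27% higher and 6.87% lower with PM in the OVA arm. In the test of the difference between the arms 0 genes of the 4 lists passed. The list medians with PM were -0.12, -0.035, -0.16 and -0.18 in the saline arm and -0.12, -0.12, -0.14 and -0.25 in the OVA arm, beside 0.0053 and -0.0020 for all genes tested.

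The genes whose log2 CPM followed a member most closely over the 22 libraries are given as a description, since the libraries share depth and base composition. For Areg, among 13603 genes, these were Kif1bp (Pearson r 0.92), Ss18 (0.92) and Pxmp4 (0.91), which ranked 37, 90 and 11 when the 3 shallow libraries were left out. With OVA without PM their log2 fold changes were -0.30, -0.17 and -0.32. Erbb2 was followed by Fzd1 (0.96), Anks1 (0.95) and Fgfr4 (0.95), which ranked 1, 4 and 5 over the 19 deeper libraries, and with PM in the OVA arm their log2 fold changes were -0.54, -0.52 and -0.87. Hbegf was followed by Fgfrl1 (0.94), Dip2c (0.94) and Tmem44 (0.93), which then ranked 79, 4 and 18. Egfr was followed by Csgalnact1 (0.92), Chn1 (0.90) and Tmem38a (0.89), which then ranked 3, 114 and 93. Tgfa was followed by Kcna2 and Fam83h (both 0.91), which then ranked 154 and 331. Btc was followed by Sesn1, Smug1 (both 0.85) and Prkg2 (0.84), Erbb3 by Zfpm1 (0.82), Dpp9 and Sp2 (both 0.79), and Nrg1 by Pacsin3 (0.74), Abhd16a (0.73) and Inpp5k (0.72). In the same order these then ranked 19, 45 and 20 for Btc, 7, 36 and 31 for Erbb3, and 5, 11 and 23 for Nrg1.

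The authors' deposited table for OVA without PM gives Areg a log2 fold change of -1.31 and an adjusted p of 9.1e-07, and no other member an adjusted p under 0.05. The authors' deposited table for PM in the saline arm gives -0.57 for Areg (adjusted p 0.0139) and -0.38 for Tgfa (adjusted p 0.0115). The authors' deposited table for PM in the OVA arm gives -0.42 for Erbb2 (adjusted p 0.00416) and -0.34 for Hbegf (adjusted p 0.0479), the latter past the threshold there and not in edgeR.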

How the data were processed

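The authors deposited raw read counts per gene in 3 tables, which were joined. The tables share 12 library columns, which were identical, and 0 columns were left unmapped. The authors' deposited statistics (log2 fold changes with adjusted p-values) were used only where named. The submitters' processing notes name bcl2fastq and the build mm10, and the aligner, counter and annotation are not given in the sources used here. Per the labels' protocols the libraries were stranded, from 400 ng of RNA, and read from a single end for 75 cycles with 24 libraries in a run. Normalised values in the files were not used here. Of 24421 gene rows 16 had turned into dates (0.152% to 0.195% of counts) and were left out. Replicate pairs differed by more than counting noise, with 2.82 to 86.3 chi-square units per degree of freedom. GENCODE M21 gave transcript lengths, GC and positions for 23361 genes, and RefSeq gave promoters for 5 members.

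Genes kept by filterByExpr in edgeR (count of at least 10, total of at least 15) were scaled by TMM and tested by pairwise quasi-likelihood F tests, with 1 fit of all 4 groups for the difference between the arms, at a Benjamini-Hochberg adjusted p of 0.05. Each SE was taken as the absolute log2 fold change over the root of its F statistic. Levels are TMM-scaled CPM, and log2 CPM used a prior count of 2. The members, gene lists and tests were chosen with earlier results of these data known. The text names all genes of the family, up to 3 called genes with the smallest p per pathway list and comparison, and the 3 genes with the highest r to each member above 1 CPM. Alternatives were DESeq2, its size factors, library totals, no filter, 1 CPM in 5 libraries, all 4 groups in 1 fit, a replicate block, a length and GC offset (splines of 4 df, genes of at least 10 CPM), libraries of at least 2 M counts and leaving out each library. An offset on all tested genes was added after the data were seen. The procedure was tested on simulated counts. Software was R 4.3.3, edgeR 4.0.16, limma 3.58.1, DESeq2 1.42.0, Python 3.11.15, pandas 2.3.3, numpy 2.4.6 and matplotlib 3.10.9. The 95% intervals of fold changes come from the edgeR fits and include the spread between libraries, and the floor of 3 counts covers counting error only. Of the genes this rule takes, 2 are not reported here.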

Additional observations from a re-analysis of the deposited data

Results flagged for a closer look

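In 8 of 40 combinations of a tested gene and a group, 1 library stood further from the others than Dixon's 95% limit for its group, where chance gives about 1 in 20. Areg stood at 7.11 CPM in replicate 3 of the saline arm without PM, against 3.27 to 4.42 CPM in the others, and without that library its fall with OVA kept its call. Areg had 0 CPM in replicate 4 of the OVA arm with PM, from 0 counts in the library of 0.302 M counts. The same library held Hbegf at 23.5 CPM, from 7 counts, and Egfr at 30.2 CPM, from 9 counts. Btc was at 2.94 CPM in replicate 4 of the saline arm without PM, from 9 counts. Erbb2 was at 32.3 CPM in replicate 2 of the saline arm with PM, below the 37.1 to 38.7 CPM of the others, from 331 counts. Nrg4 was at 1.88 CPM in replicate 1 of the saline arm with PM, from 14 counts, and at 4.63 CPM in replicate 4 of the OVA arm without PM, from 8 counts.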

How the results depend on the processing

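The fall of Areg with OVA without PM and that of Hbegf with OVA with PM kept their calls in every fit that gave a value; the other calls of members did not. The cause of each change below was not tested. With OVA without PM, 1 member was called, against 3 with all 4 groups in 1 fit, 2 with the replicate block, 2 with the offset on all tested genes and 1 to 2 when 1 library was left out. With PM in the saline arm 2 were called, against 0 with no filter, 1 with all 4 groups in 1 fit, 0 with the length and GC offset, 1 with the offset on all tested genes, 3 with the replicate block and 0 to 3 when 1 library was left out. With PM in the OVA arm 1 was called, against 2 with library totals, with all 4 groups in 1 fit and with libraries of at least 2 M counts, 0 with either offset and 0 to 2 when 1 library was left out. With OVA with PM 3 were called, against 1 with DESeq2, with all 4 groups in 1 fit, with the replicate block and with libraries of at least 2 M counts, and 1 to 2 when 1 library was left out.

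Signs turned for some uncalled log2 fold changes. With PM in the saline arm the offset and the offset on all tested genes gave 0.022 and 0.014 for Erbb2 and 0.026 and 0.016 for Erbb3. With PM in the OVA arm Areg was -0.067 with library totals, -0.089 with the replicate block and -0.30 with the offset on all tested genes, Egfr 0.058 and 0.029 with the offsets, and Btc 0.0098 with libraries of at least 2 M counts. For the difference between the arms Egfr was -0.035 with library totals and -0.026 with libraries of at least 2 M counts, and Egf -0.0018 with the replicate block. Leaving out 1 library gave -0.13 to 0.069 for Btc, -0.030 to 0.083 for Erbb3 and -0.016 to 0.27 for Egf with OVA without PM. It gave -0.069 to 0.30 for Areg and -0.17 to 0.041 for Btc with PM in the OVA arm, -0.11 to 0.029 for Erbb3 with OVA with PM, and -0.12 to 0.012 for Erbb3 and -0.20 to 0.29 for Egf for the difference. Of 1189 values of 53 gene results under alternatives, 1059 kept direction and side of the threshold, 79 lost the call, 18 gained one and 33 changed sign.

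Over all genes, PM in the saline arm called 793 higher and 1069 lower, and 247 to 1864 and 243 to 2248 when 1 library was left out. PM in the OVA arm called 332 and 1007, against 76 and 489 with the replicate block, 57 and 119 with the offset, 63 and 201 with the offset on all tested genes, 1497 and 1975 with libraries of at least 2 M counts, and 0 to 1376 higher when 1 library was left out, with 0 in either direction without replicate 1 or replicate 6 with PM. The replicate numbers were not used as pairs outside the replicate block. Same-numbered libraries correlated at -0.179 to 0.569 in their deviations from the group means. Between saline and OVA without PM the mean r was 0.17 for same-numbered libraries and -0.019 for others. There 2 of 6 libraries correlated best with their own number, so a shared structure between these 2 groups is not settled. Genes under 10 CPM, Areg, Btc and Nrg1 among them, had no value with the first offset. In the shallowest library 3 counts equal 10.1 CPM, which limits every gene of low level.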
